A study of Mus musculus with 6 samples.

Results

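The 75 genes described here encode the histones of the mouse, the proteins around which DNA is wound. They comprise 67 genes of the histone clusters, with symbols that start with Hist1h (53 genes), Hist2h (10), Hist3h (3) or Hist4h (1), and 8 variant genes (H2afx, H2afy, H2afz, H2afv, H3f3a, H3f3b, H1f0 and H1fx). They were taken by symbol from the 22098 gene symbols of a table of RPKM, which are read numbers divided by the length of the transcript and by the size of the library. Where a symbol had several rows, its row of highest mean was used. A gene was tested when it reached 1 RPKM in at least 2 of the 6 libraries, which 46 of the 75 did (38 cluster genes and all 8 variant genes).

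Poly(A) RNA was taken from pro-B acute lymphoblastic leukaemia cells in culture. The cells had been made from whole bone marrow of C57BL/6 mice with a retrovirus, BCR-ABL-p185-IRES-YFP, given at day 0, so every group carries the leukaemia kinase fusion BCR-ABL and the YFP reporter. The marrow was wild type (wt), Ikaros ZnF1-/- or Ikaros ZnF4-/-, and the mutants, called ZnF1 mutant and ZnF4 mutant below, are named for a zinc finger of Ikaros, a DNA-binding factor of lymphocyte development. Each of the 3 genotypes was sampled after 21 and after 28 days in vitro, each time as a single library. The labels do not say that the days came from separate cultures, the sources used here do not give the age of the mice, and p-values measure only the spread between these 6 libraries. Ikzf1, the gene of Ikaros, was at 78.7 to 89.2 RPKM in wild type, 91.4 to 108 in the ZnF1 mutant and 165.9 to 186 in the ZnF4 mutant, and a value over a whole transcript does not show which finger is missing. The read depth is unknown, so no counting interval can be given, and values are rounded to 0.1 RPKM. Pairs of values below give day 21 first and day 28 second.

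Most histone protein is made from the cluster genes while DNA is being replicated. Their mRNAs have no introns and normally end in a short hairpin in place of a poly(A) tail, and the hairpin is bound by the protein SLBP. Variant histones are made in and outside of DNA replication, mostly from ordinary polyadenylated mRNAs, and H2afx is known to give mRNAs of both kinds. A share of cluster transcripts also reads past the hairpin to a poly(A) site further on, and poly(A) enrichment keeps those and loses most others.

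The hairpins are shown because they mark members whose mRNAs can end without a poly(A) tail. They were searched in GENCODE transcripts (build GRCm38) within 80 bases after the stop codon, as a perfectly paired stem of 6 bases starting with GG around a loop of 4 bases starting with TT. One was found in 44 cluster genes and in H2afx, and was not found in the window for 22 further cluster genes. For several of these 22, such as Hist2h2bb, Hist1h1b and Hist1h2ak, the matched transcript has 0 bases after the stop codon. No hairpin could be found in such a transcript, so the search does not show that these genes lack a hairpin. The sequences are given 5′ to 3′ in DNA letters, with the loop in capitals.
26 genes of the H1, H2A, H2B and H3 families, such as Hist1h1c, Hist1h1e and Hist1h2bg: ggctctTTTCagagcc
7 H4 genes, such as Hist1h4d and Hist4h4: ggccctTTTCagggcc
6 genes, such as Hist1h2bk, Hist1h3c and the testis linker histone gene Hist1h1t: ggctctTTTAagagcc
Hist1h4i and Hist2h4: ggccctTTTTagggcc
Hist1h4b and Hist1h4j: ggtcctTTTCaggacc
Hist2h2ac: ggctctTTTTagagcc
H2afx: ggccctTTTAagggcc
Among the 13 H4 genes in all, each hairpin found had a stem other than the one shared by the H1, H2A, H2B and H3 genes. H2afx, a variant, carried a stem like that of most H4 genes with a loop like that of Hist1h1t.

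The variant genes gave most of the histone signal in this poly(A) RNA. Summed over the 67 cluster genes, the level was 213.3 and 193.4 RPKM in wild type, 153.6 and 198.9 with the ZnF1 mutation and 177.7 and 154.3 with the ZnF4 mutation. The 8 variant genes summed to 692.6 and 766.7, 538.9 and 639, and 732.9 and 766 RPKM in the same order. The cluster genes thus held between 16.8% and 23.7% of the histone signal in a library.

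H2afy, which encodes the large variant macroH2A1, held between 54.3% and 60.1% of the variant signal. It measured 416.2 and 456.1 RPKM in wild type, 319.9 and 369.2 with the ZnF1 mutation and 403.3 and 415.6 with the ZnF4 mutation. H2afx, the variant that is phosphorylated at DNA breaks, measured 100 and 112.3, 62.5 and 88.9, and 108 and 141.8 RPKM. H3f3b, 1 of the genes for the replacement histone H3.3, measured 101.3 and 105.8, 98.3 and 100.3, and 103.3 and 100.2 RPKM. H2afx had the wider range, and H3f3b was the steadiest of these 3 genes, so their order changes between the wild type libraries, and H2afx lies below H3f3b in both ZnF1 mutant libraries and above it in both ZnF4 mutant libraries. H2afv, an H2A.Z gene, measured 46.6 and 55, 33.5 and 43.8, and 50.9 and 52.7 RPKM. H2afz, the other H2A.Z gene, measured 9.8 and 14.3, 4.7 and 9.7, and 11.4 and 11.6 RPKM. H1f0, the linker histone H1.0 of cells that have stopped dividing or differentiated, lay between the H2A.Z genes in every wild type and ZnF1 mutant library and reached H2afv only in the ZnF4 mutant at day 21 (54.1 RPKM against 50.9). H3f3a, which encodes the same H3.3 protein as H3f3b, measured between 1.3 and 1.9 RPKM, and H1fx, a further linker histone gene, between 0.3 and 1.2.

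**Figure D1:**
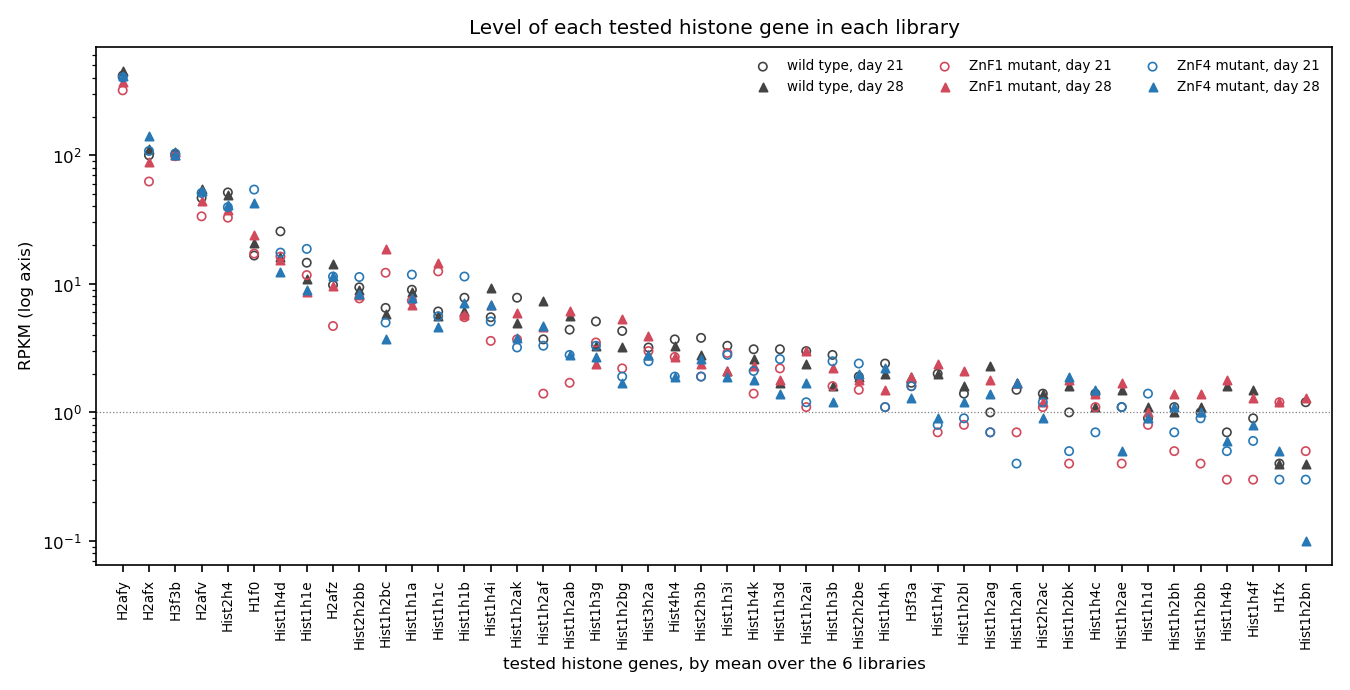
RPKM (log axis) of the 46 tested histone genes in each of the 6 libraries, ordered by their mean. Circles are day 21 and triangles day 28, colours are genotypes, and the dotted line marks 1 RPKM. H2afy lies above all other members in every library, H3f3b has nearly equal values in all 6, and Hist2h4 is the highest cluster gene.

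Among cluster genes the signal was uneven. Hist2h4, an H4 gene, held between 18.8% and 26.6% of the cluster signal. The 5 cluster genes with the highest mean over the 6 libraries, a fixed set that is not the highest 5 of every library, held between 44.2% and 52.5%. Hist2h4 measured 51.4 and 48.7 RPKM in wild type, 32.7 and 37.4 with the ZnF1 mutation and 39.5 and 41 with the ZnF4 mutation. Hist1h4d, the next H4 gene, measured 25.6 and 16.2, 16.3 and 15.2, and 17.5 and 12.4 RPKM, below Hist2h4 in every library. Hist1h1e, a linker histone gene, measured 14.6 and 10.9, 11.7 and 8.6, and 18.7 and 9 RPKM. It was higher at day 21 than at day 28 in each genotype, and its values overlap those of Hist1h4d. Hist2h2bb, an H2B gene, measured between 7.7 and 11.3 RPKM, and the linker histone genes Hist1h1a and Hist1h1b between 6.8 and 11.8 and between 5.5 and 11.4, ranges that overlap.

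By family, 5 of the 6 H1 genes of the clusters, 9 of 18 H2A, 6 of 18 H2B, 5 of 12 H3 and 8 of 13 H4 genes had a mean of at least 1 RPKM. The summed level was highest for H4 in every library, from 60.7 to 97.4 RPKM, and lowest for H3 in every library, from 10.7 to 19.8, each scaled to the length of its rows. The other core histone families lay between them, with 14.4 to 30.9 RPKM for H2A and 22.9 to 44.1 for H2B. Core histone proteins are used in equal numbers in a nucleosome, and these sums are of poly(A) RNA only.

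Of the 29 members that were not tested, none exceeded 1.2 RPKM in any library, and 10 cluster genes were listed at 0 in all 6 libraries. Among these 10 were Hist1h1t, Hist1h2aa and Hist1h2ba, which encode histones of the testis. The other 7 (Hist1h2bq, Hist1h2ao, Hist2h2aa1, Hist1h2ap, Hist1h2ad, Hist2h2aa2 and Hist2h3c1) are near-identical copies: every window of 36 bases in their coding sequence also occurs in the transcript of another gene. For Hist1h2ap and Hist2h2aa2 the row length was 788 bases, 2 times the coding length of 393 bases plus 1 base each. The sources used here do not say how reads matching several genes were counted, so a 0 for these 7 genes says nothing certain about the gene.

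Shared sequence was measured for the 74 members matched to a GENCODE transcript (Hist3h2bb-ps was not). All coding windows were shared in 14 members, whose median level was 0.00833 RPKM. At least 50% but not all were shared in 43 members, with a median of 1.2 RPKM, and fewer in 17 members, with a median of 7.28. These sets mix cluster genes with the variant genes, several of which are high. Among cluster genes alone the median was 2.31 RPKM for the 12 with under 50% shared and 0.942 for the 54 others. At 0 in every library were 3 of the 12 and 7 of the 54. Exceptions ran in both directions. H2afz and Hist1h2bc, with every coding window shared, had means of 10.3 and 8.62 RPKM, and Hist1h1t, with 0% shared, was at 0. Over their whole GENCODE transcripts H2afz and Hist1h2bc shared 34.1% and 32.9% of windows, and the 3 members whose transcripts were shared throughout were at 0 in all libraries. Of the H3.3 genes, H3f3a shared 97.9% of its coding windows and H3f3b 61.2%, and over the whole transcript the shares were 18.9% and 15.0%. The sources used here do not say how such reads were counted, so levels of members with mostly shared coding windows are uncertain to an unknown degree. Hist2h4 shared 10.8% of its coding windows, and H2afy, H1f0, H1fx, H2afv, Hist4h4 and Hist1h1a shared 0%, so the coding sequence of these 7 genes is found in no other transcript, or nearly so.

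**Figure D2:**
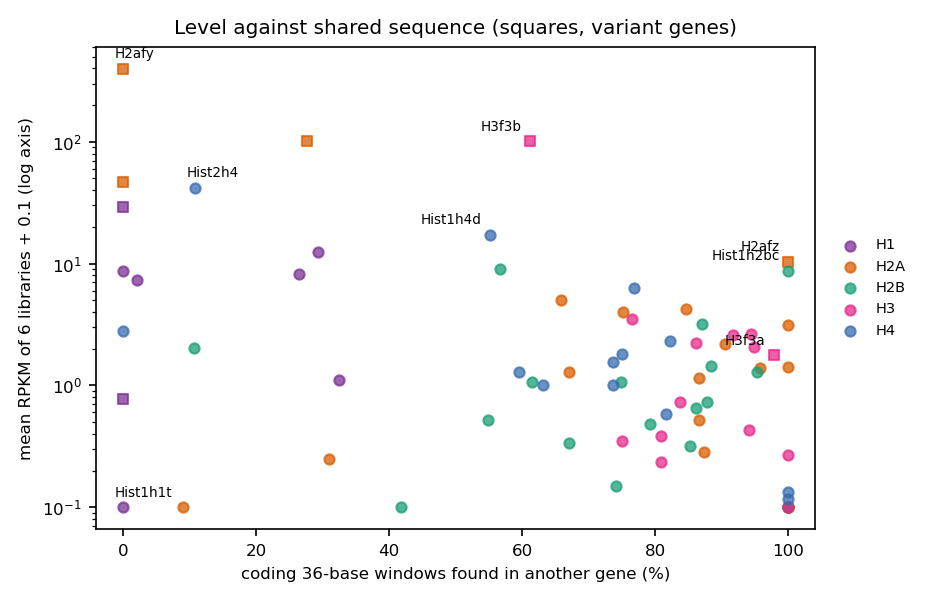
Mean level over the 6 libraries (RPKM + 0.1, log axis) against the percent of 36-base coding windows that also occur in another gene, for the 74 matched members. Colours are histone families, circles cluster genes and squares variant genes. Members with few shared coding windows reach the highest levels (H2afy, Hist2h4), most members with all coding windows shared lie near 0, and H2afz and Hist1h2bc stand apart at 100%.

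The annotated end of the transcript went with the level among cluster genes that have the hairpin. In 18 of them the annotated transcript runs on for at least 300 bases after the hairpin, and 11 of these had a mean of at least 1 RPKM, with a median of 1.33. In 22 it stops within fewer than 100 bases, and 6 of these reached that level, with a median of 0.317. At 0 in every library were 5 of the 22 and 1 of the 18. All of these are near-identical copies, whose 0 is uncertain, and they lower the median of the 22 more than that of the 18. Hist2h4, whose transcript runs on for 1257 bases, Hist1h1e (1153 bases), Hist1h1c (840) and Hist1h4d (770) are in the first set. Exceptions were Hist1h2ac, with 2010 bases after the hairpin and 0.3 to 0.5 RPKM, and Hist1h2ab, with 11 bases and 1.7 to 6.2 RPKM. The length of the row used for the RPKM value showed no such order in these values. The 19 cluster genes with rows over 700 bases had a median of 0.417 RPKM (8 with a mean of at least 1), and the 48 with shorter rows 1.2 (25). At 0 in every library were 7 of the 19 and 3 of the 48. All of the 7 but Hist1h1t are near-identical copies with an uncertain 0, so these medians do not settle the order. For 30 cluster genes, Hist1h4d and Hist4h4 among them, the row was as long as the coding sequence plus 1 base, so reads beyond the stop codon could not enter the value. Genes are not replicates, and none of these contrasts was tested. Rows of RNAs without a tail also had signal. The 112 rows of small nucleolar and Cajal body RNAs had a median of 2.725 RPKM, within the range of the tested cluster genes (0.633 to 41.8), and whether reads of their host genes enter these rows was not tested.

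In the ZnF1 mutant 2 cluster genes and 1 variant gene rose and 8 members fell against wild type. Differences are on the log2(RPKM + 1) scale with the standard error of the limma fit, which understates changes of low genes, and adjusted p-values are over all 11379 tested genes. The 3 higher members are 6.52% of the 46 tested, where 22.9% of all tested genes were called higher, and the 8 lower members are 17.4%, where 15.2% of all were called lower. The share called lower is thus near that of all genes and the share called higher is below it. The median difference of the tested members was -0.24, against -0.02 for all tested genes, with 39 members below 0 and 6 above. Of all tested genes 47.6% lay above 0. Leaving out ZnF1 mutant day 21 moved the median of the members to -0.02, wild type day 21 to -0.15 and ZnF1 mutant day 28 to -0.40, and without the filter on low values it was -0.07.

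Hist1h1c, a linker histone gene (H1.2), measured 6.1 and 5.6 RPKM in wild type, 12.5 and 14.4 with the ZnF1 mutation and 5.6 and 4.6 with the ZnF4 mutation. Both ZnF1 mutant libraries lie above all 4 others. The difference from wild type was 1.07 ± 0.12 (limma, adjusted p = 0.00289), and leaving out wild type day 28 gave an adjusted p of 0.0522. Hist1h2bc, an H2B gene, measured 6.5 and 5.8 RPKM in wild type, 12.2 and 18.5 with the ZnF1 mutation and 5 and 3.7 with the ZnF4 mutation, again without overlap. It differed from wild type by 1.17 ± 0.22 (limma, adjusted p = 0.0141), and the call was lost on leaving out wild type day 21 (adjusted p = 0.0965) or wild type day 28 (0.140). All its coding windows are shared with other genes, and 32.9% of the windows of its whole GENCODE transcript. Its row is 730 bases long against a coding sequence of 381 bases, and which part of the row the reads came from was not tested. H1fx measured 0.4 and 0.4 RPKM in wild type, 1.2 and 1.2 with the ZnF1 mutation and 0.3 and 0.5 with the ZnF4 mutation. H1fx passed the filter on low values only through the ZnF1 mutant libraries, so that its call (0.65 ± 0.11, limma adjusted p = 0.00931) is no separate evidence. On leaving out wild type day 21 or day 28 its adjusted p was 0.0555 or 0.0790.

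Hist1h2bc and Hist1h1c lie close together on chromosome 13. Among the members, in annotation order, the stretch reads Hist1h2ac, Hist1h2bc, Hist1h1t, Hist1h4c, Hist1h1c and Hist1h3c. Genes other than the members were left out of this order. The members beside and between the 2 genes showed no such difference. Hist1h1t was at 0, and Hist1h2ac stayed at or below 0.5 RPKM. Hist1h3c measured 0.5 and 0.9 RPKM in wild type and 0.2 and 1.2 with the ZnF1 mutation. These 3 did not reach the filter and were not tested. Hist1h4c measured 1.4 and 1.1 RPKM in wild type, 1.1 and 1.4 with the ZnF1 mutation and 0.7 and 1.5 with the ZnF4 mutation. Its difference between ZnF1 mutant and wild type was 0.00 (limma, adjusted p = 1).

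The 8 members that fell in the ZnF1 mutant were 4 variant genes and 4 cluster genes. H2afx fell by 0.50 ± 0.10 (adjusted p = 0.0155), with both ZnF1 mutant libraries below the other 4. H2afz fell by 0.72 ± 0.21 (adjusted p = 0.0462), H2afv by 0.39 ± 0.10 (0.0281) and H2afy by 0.34 ± 0.09 (0.0370), from the levels given above. For H2afv, H2afy and H2afz both ZnF1 mutant libraries lie below the other 4, for H2afz narrowly (9.7 RPKM at day 28 against 9.8 in wild type at day 21). H3f3b did not pass the test (-0.06 ± 0.07, adjusted p = 0.533). Hist2h4 fell by 0.50 ± 0.09 (adjusted p = 0.00947), and both ZnF1 mutant libraries are the lowest of the 6.

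The other 3 that fell were low core histone genes with mostly shared coding windows. Hist1h2af measured 3.7 and 7.3 RPKM in wild type, 1.4 and 4.6 with the ZnF1 mutation and 3.3 and 4.7 with the ZnF4 mutation (-0.77 ± 0.20, adjusted p = 0.0338). Its groups overlap and its days differ by more than its genotypes, so the call rests on setting libraries of the same day side by side. Hist1h4i measured 5.5 and 9.3, 3.6 and 6.9, and 5.1 and 6.9 RPKM, with the same overlap (-0.44 ± 0.12, adjusted p = 0.0421). Hist1h3g measured 5.1 and 3.3, 3.5 and 2.4, and 3.3 and 2.7 RPKM (-0.39 ± 0.11, adjusted p = 0.0426). All 8 lost their call on leaving out wild type day 21, wild type day 28 or ZnF1 mutant day 21, with adjusted p-values of up to 0.262. Without day as a term only 1 member was called lower (Hist2h4, adjusted p = 0.00902).

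**Figure D3:**
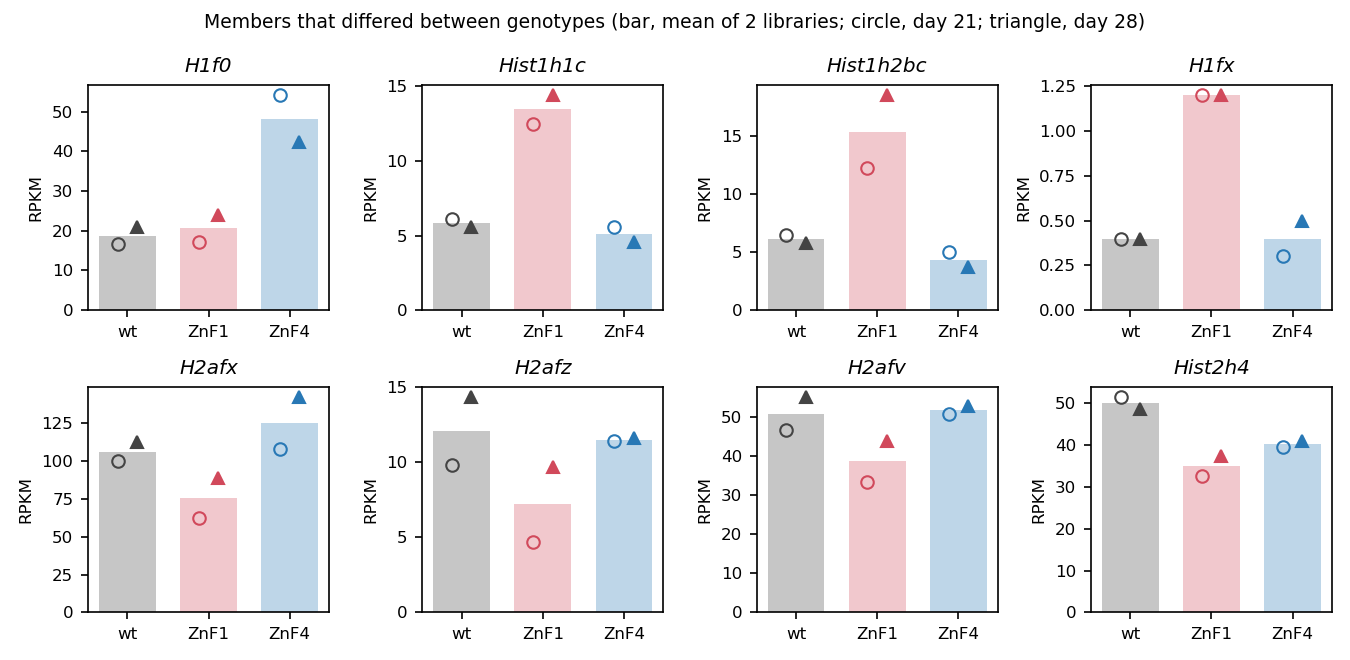
RPKM of 8 members with a genotype call, with bars (from 0) for the mean of the 2 libraries of a genotype, circles for day 21 and triangles for day 28. H1f0 is high in the ZnF4 mutant, Hist1h1c, Hist1h2bc and H1fx are high in the ZnF1 mutant, and H2afx, H2afz, H2afv and Hist2h4 are low in the ZnF1 mutant.

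In the values as deposited, the cluster genes of the ZnF1 mutant lay below wild type mainly at day 21. On that day 36 of the 38 tested cluster genes lay below wild type, with a median difference of -0.49, and at day 28, 18 lay below and 18 above, with a median of 0.00. The 30 of them with mostly shared coding windows, whose levels are uncertain, had medians of -0.53 at day 21 and 0.11 at day 28. Of these 30, 29 lay below wild type at day 21 and 11 at day 28. The other 8, which include all tested H1 genes of the clusters, had medians of -0.27 and -0.16. On each day 7 of these 8 lay below wild type. The change between the days was thus carried mainly by genes with mostly shared coding windows. The medians of H2A, H2B and H4 were -0.58, -0.49 and -0.58 at day 21 and 0.11, 0.25 and -0.12 at day 28. All 9 tested H2A and all 9 tested H2B genes were higher at day 28 than at day 21 within the ZnF1 mutant, with medians of 0.72 and 0.68. Many other short rows rose as well. Of 263 non-member genes with rows of up to 500 bases, 201 were higher and 57 lower at day 28, with a median of 0.32. Of all 11333 non-member tested genes, 6751 were higher and 4126 lower. Against wild type, the variant genes had medians of -0.22 and -0.19 on the 2 days. Quantile scaling turned the day 28 medians of H2A and H2B to -0.39 and -0.29 and that of all cluster genes to -0.38, still above the -0.73 of day 21. Against wild type, the 263 non-member genes with rows of up to 500 bases had medians of -0.18 and -0.01 on the 2 days, and those over 2000 bases -0.01 and 0.00. With 1 library per genotype and day the difference between the days was not tested.

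**Figure D4:**
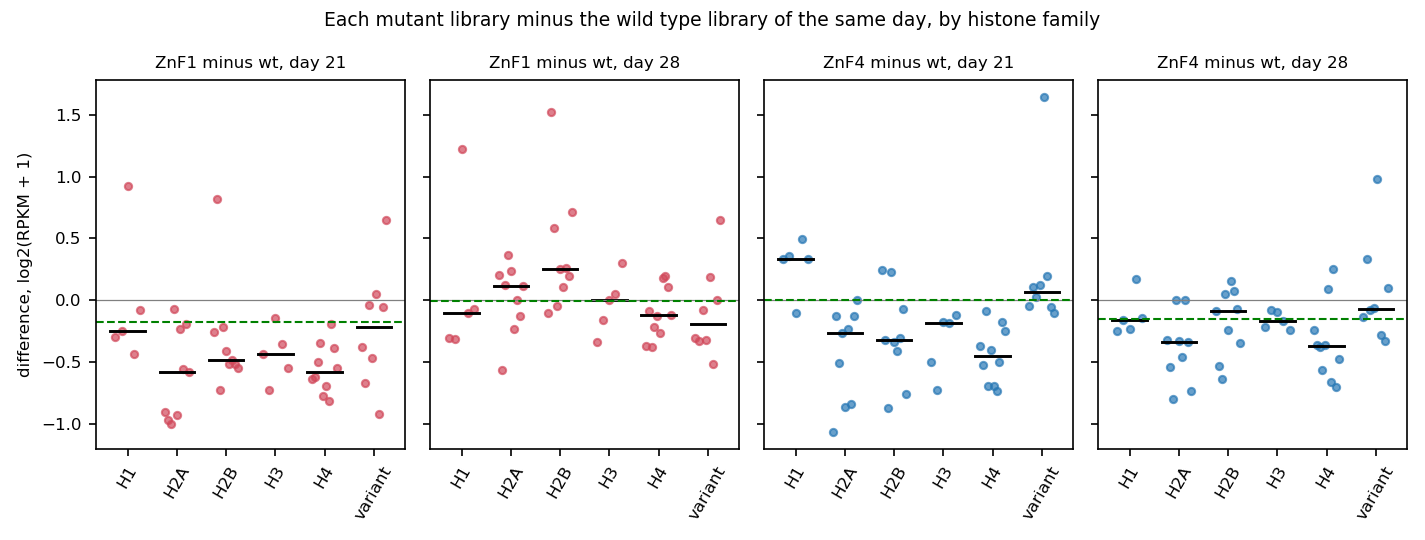
Difference of each mutant library from the wild type library of the same day, log2(RPKM + 1), for the 38 tested cluster genes by family and the 8 variant genes. Points are genes, black bars are medians, and the dashed green line is the median of 263 other genes with rows of up to 500 bases. In the ZnF1 mutant the core histone families lie mostly below 0 at day 21 and around 0 at day 28.

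Quantile scaling also moved the ZnF1 comparison as a whole. It shifted the median of all tested genes from -0.02 to -0.12 and that of the members to -0.55, called 26 members lower and 2 higher (H1fx was no longer called), and lowered the share of higher genes among all called from 60.1% to 41.3%. Median-of-ratios scaling called 3 members higher and 7 lower, with a median of -0.22 for the members and 0.02 for all tested genes, and day 28 medians of 0.12 for H2A and 0.26 for H2B. The percent of all tested genes called lower or higher under these scalings is not given here. The member counts therefore cannot be set against other genes.

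In the ZnF4 mutant 1 member rose and 1 fell against wild type. Each is 2.17% of the 46 tested members, where 10.9% of all tested genes were called higher and 7.32% lower. H1f0 measured 16.6 and 20.9 RPKM in wild type, 17.2 and 24 with the ZnF1 mutation and 54.1 and 42.3 with the ZnF4 mutation. Both ZnF4 mutant libraries lie above the other 4, and the difference from wild type was 1.31 ± 0.20 (limma, adjusted p = 0.0121). Leaving out wild type day 21 (difference 1.18, adjusted p = 0.151) or wild type day 28 (1.45, adjusted p = 0.0993) removed the call. Hist4h4, an H4 gene outside the large clusters with no shared coding windows, measured 3.7 and 3.3 RPKM in wild type, 2.7 and 2.7 with the ZnF1 mutation and 1.9 and 1.9 with the ZnF4 mutation, with no overlap between the 3 genotypes. It fell by 0.63 ± 0.10 (limma, adjusted p = 0.0123), and the call was lost without any 1 of the 4 libraries compared (adjusted p up to 0.128). A fit of only these 4 libraries called 5 members lower, and the percent of all tested genes called in that fit is not given here. The median difference of the tested members was -0.21, against 0.02 for all tested genes. Below 0 lay 37 of the 46 members, where 53.2% of all tested genes lay above 0. The median of the members was -0.10 on leaving out wild type day 21 and -0.32 without wild type day 28. It was -0.11 without ZnF4 mutant day 28 and -0.04 for members with a mean of at least 4 RPKM. Per day the medians of the tested cluster genes were -0.28 and -0.24, with H4 at -0.45 and -0.37, and those of the variant genes 0.07 and -0.07. The H1 genes of the clusters had medians of 0.34 at day 21 and -0.16 at day 28. These family medians kept their signs under quantile and median-of-ratios scaling. The 30 tested cluster genes with mostly shared coding windows had medians of -0.33 on both days. The other 8 had medians of 0.28 at day 21, with 5 above wild type, and -0.20 at day 28, with 6 below. The fall at day 21 was thus not seen in the median of these 8, which include all tested H1 genes of the clusters. The 263 non-member genes with rows of up to 500 bases had medians of 0 and -0.15, with 168 below wild type and 85 above at day 28.

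Set against the ZnF1 mutant, the ZnF4 mutant had 5 members higher (10.9% of the tested, where 22.3% of all tested genes were called higher) and 4 lower (8.70%, where 23.2% of all were called lower). This comparison shares its libraries with both others. H1f0 was higher by 1.20 ± 0.20 (limma, adjusted p = 0.00684), H2afx by 0.72 ± 0.10 (0.00360), H2afv by 0.43 ± 0.10 (0.0181), H2afz by 0.68 ± 0.21 (0.0471) and the linker histone gene Hist1h1b by 0.60 ± 0.16 (0.0333). Hist1h1b measured 7.8 and 6.2 RPKM in wild type, 5.5 and 5.7 with the ZnF1 mutation and 11.4 and 7.1 with the ZnF4 mutation, so the ZnF4 mutant lies above the ZnF1 mutant on both days. The calls of H2afv, H2afz and Hist1h1b were lost without either wild type library, without the ZnF1 mutant library of day 21 or without the ZnF4 mutant library of day 21 (adjusted p up to 0.239), and without day as a term only 2 members were called higher. Hist1h2bc was lower by 1.60 on the log2 scale (SE 0.22, adjusted p = 0.00390), Hist1h1c by 1.25 (SE 0.12, adjusted p = 0.00133), H1fx by 0.66 (SE 0.11) and Hist4h4 by 0.35 (SE 0.10, adjusted p = 0.0333). H1fx, which again passed the filter only through the ZnF1 mutant libraries, is counted among the 4 but is no separate evidence. The call of Hist4h4 was lost without any 1 library (adjusted p up to 0.185). Of the 22 calls over the 3 genotype comparisons, that of Hist1h1c here was the 1 that no alternative setting removed. Under quantile scaling 13 members were called higher and 2 lower, the median of all tested genes moved from 0.03 to 0.12 and the share of higher genes among all called from 49.1% to 59.3%. The percent of all tested genes called under that scaling is not given here, so the 13 cannot be set against other genes.

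Between day 28 and day 21, fitted over the 3 genotypes, limma called 0 members higher and 0 lower, as it did for all 11379 tested genes (0% in each direction). At an unadjusted p below 0.05 there were 15 members and 1631 genes in all. Examples are Hist1h2af (0.82 ± 0.16, adjusted p = 0.191) and Hist1h4i (0.61 ± 0.10, adjusted p = 0.173), both higher at day 28 in each of the 3 genotypes, and Hist1h1e (-0.59 ± 0.13, adjusted p = 0.207), lower at day 28 in each.

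Markers of other cells moved with the genotypes. All 10 macrophage markers rose in the ZnF1 mutant and 6 of 10 fell in the ZnF4 mutant. Their summed level was 494 and 314.8 RPKM in wild type, 1946.1 and 1838.5 with the ZnF1 mutation and 202.4 and 265.1 with the ZnF4 mutation, and none was at 0 in all libraries. All 8 stromal markers rose in the ZnF1 mutant and 4 of 8 fell in the ZnF4 mutant, with sums of 25 to 38.4, 161.2 to 168.4 and 17.5 to 18.1 RPKM. Some of these 8 would not have passed the filter on low values without the ZnF1 mutant libraries, and their calls are no separate evidence. The 8 B-lineage markers, the defining genes of the labelled cells, summed to between 3237 and 3604 RPKM in every library, and none was called in the ZnF1 mutant against wild type. Igll1, a surrogate light chain gene, measured 810.6 and 663 RPKM in wild type, 756.8 and 704.6 with the ZnF1 mutation and 1124.8 and 1005.9 with the ZnF4 mutation, and rose in the ZnF4 mutant (0.54 ± 0.11, limma adjusted p = 0.0303). Between the mutants Igll1 was higher and Cd79b lower in the ZnF4 mutant. Of the 5 T cell markers, Cd3e, Cd3g and Cd8a were at 0 in all libraries. Cd4, which is not confined to T cells, measured 0.4 and 0.2 RPKM in wild type, 8.5 and 7.2 with the ZnF1 mutation and 0 and 0.1 with the ZnF4 mutation, and rose in the ZnF1 mutant (2.77 ± 0.13, limma adjusted p = 0.00100). Cd4 passed the filter on low values only through the ZnF1 mutant libraries, so that its call is no separate evidence. Lck measured 36.3 and 46.7, 11.7 and 30.5, and 16.9 and 15.8 RPKM and fell in the ZnF1 mutant (-1.08 ± 0.32, adjusted p = 0.0495). The part of macrophage and stromal RNA in the levels of Hist1h1c, Hist1h2bc, H1fx and the members that fell in the ZnF1 mutant was not tested, nor was its part in those of H1f0 and Hist4h4 in the ZnF4 mutant. In bulk RNA fewer cells of a type and less RNA per cell cannot be told apart.

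The genes that serve histone supply were described from lists. Of 18 genes for the processing and turnover of histone mRNA ends, 7 fell in the ZnF1 mutant and 0 rose. Eri1, an exonuclease that trims histone mRNA ends, measured 24 and 25.8 RPKM in wild type, 17.7 and 19.1 with the ZnF1 mutation and 27.1 and 25.8 with the ZnF4 mutation (-0.42 ± 0.08 in the ZnF1 mutant, limma adjusted p = 0.0131). Slbp, named for its role as the hairpin-binding protein, measured 29.7 and 39.3, 17.7 and 28.5, and 28.7 and 31.4 RPKM (-0.58 ± 0.13, adjusted p = 0.0234). Both were lower in the ZnF1 mutant on each day. Of 19 histone chaperones, which carry histones to and from DNA, 14 fell and 0 rose, and of 20 DNA replication genes 18 fell and 0 rose. Among all tested genes 15.2% were called lower in this comparison and 22.9% higher. Asf1b, a chaperone of H3 and H4, measured 97.3 and 85.2 RPKM in wild type, 62.3 and 63.8 with the ZnF1 mutation and 115.7 and 116.7 with the ZnF4 mutation. Cenpa, the centromeric H3 variant, measured 85.6 and 101.8, 62.2 and 75.7, and 103.5 and 102.1 RPKM and fell in the ZnF1 mutant by 0.44 ± 0.10 (adjusted p = 0.0211). The median differences in the ZnF1 mutant were -0.20 for processing, -0.38 for chaperones and -0.41 for replication, beside -0.02 for all tested genes. In the ZnF4 mutant against wild type 1, 2 and 2 genes of these lists rose and 1, 0 and 0 fell, where 10.9% of all tested genes were called higher and 7.32% lower.

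Promoters (250 bases before to 50 after the start, RefSeq, GRCm38.p6) were at hand for 67 of the 75 members. They were searched on both strands for 4 motifs. The sequence CCAAT was found in 85% of 60 cluster promoters, against 37.9% of all 27025 promoters. It was in all promoters of the H1, H2A, H2B and H3 genes and in 3 of the 12 H4 promoters. The octamer ATTTGCAT was in 7 of 17 H2A and 6 of 15 H2B promoters, in none of the H1, H3 and H4 cluster promoters, and in 1.75% of all. TATAAA was in 58.3% of cluster promoters against 14.2% of all, and the fourth motif, TGGGAA, was in 20% against 25.5%. Of the variant promoters 4 of 7 held CCAAT, 1 TATAAA and 1 the octamer. The promoters of H1f0 and H1fx held none of the 4 motifs. The promoter of Hist1h1c is shown as that of the cluster gene with the firmest call, and that of Hist1h2bg as an H2B promoter with 3 of the motifs, each match in capitals.
Hist1h1c, chr13:23738557-23738856, plus strand: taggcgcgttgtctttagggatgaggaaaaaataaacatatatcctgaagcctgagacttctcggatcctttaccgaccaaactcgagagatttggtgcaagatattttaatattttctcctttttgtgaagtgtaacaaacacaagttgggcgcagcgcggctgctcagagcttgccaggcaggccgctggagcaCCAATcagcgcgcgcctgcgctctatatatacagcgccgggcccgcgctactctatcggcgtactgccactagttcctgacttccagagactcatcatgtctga
Hist1h2bg, chr13:23571150-23571449, plus strand: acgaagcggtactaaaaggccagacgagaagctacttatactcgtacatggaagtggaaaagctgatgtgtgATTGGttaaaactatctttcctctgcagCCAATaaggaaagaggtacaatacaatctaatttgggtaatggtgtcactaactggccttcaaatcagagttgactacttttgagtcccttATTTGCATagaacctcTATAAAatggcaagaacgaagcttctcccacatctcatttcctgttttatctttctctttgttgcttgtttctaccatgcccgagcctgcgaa
Hist1h1c holds 1 CCAAT. Hist1h2bg holds 2, of which 1 is on the other strand (ATTGG), followed by the octamer and TATAAA. Hist1h2bg measured 4.3 and 3.2 RPKM in wild type, 2.2 and 5.3 with the ZnF1 mutation and 1.9 and 1.7 with the ZnF4 mutation, and was called in no comparison. A match is a description of the letters in the window and does not show that a factor binds there.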

How the data were processed

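The authors deposited 1 table of RPKM values per RefSeq transcript, with row lengths. The build was mm9 and the tools TopHat and bedtools, per the submitters' processing notes. Versions, read length, read numbers and the treatment of reads matching several places are not given in the sources used here. Of 26532 rows, 1 without a gene name was left out.

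R 4.3.3 with limma 3.58.1 fitted log2(RPKM + 1) of all 6 libraries with terms for genotype and day (2 residual degrees of freedom, prior 3.22). Calls are at p below 0.05 after Benjamini-Hochberg adjustment. The steps were tested on simulated data. Day is the replicate number in the labels and was kept as a block. Changes between days correlated across genes between genotypes (0.433, 0.249 and 0.226). The members and lists were chosen with earlier results of these data known. The rule for named genes takes all variant genes, any tested cluster gene, and up to 4 called genes with the smallest p from each list. Sequence features come from GENCODE and RefSeq tables of GRCm38, from which no coordinates of measured rows were taken. One further marker list is not reported here.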

Additional observations from a re-analysis of the deposited data

Results flagged for a closer look

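In 2 H2B genes of the Hist1 cluster the ZnF1 mutant lay below wild type at day 21 and above it at day 28, by at least 0.5 on the log2(RPKM + 1) scale each time. The difference for Hist1h2bg was -0.73 at day 21 and 0.58 at day 28. For Hist1h2bn it was -0.55 and 0.72, from 1.2 and 0.4 RPKM in wild type and 0.5 and 1.3 in the ZnF1 mutant. With 1 library per genotype and day, this change between the days was not tested. The values of Hist1h2bn are near the filter of 1 RPKM, and 87.0% and 87.9% of the coding windows of Hist1h2bg and Hist1h2bn are shared with other genes.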

How the results depend on the processing

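Of the 22 calls, 17 were lost on leaving out a library, 18 without the filter on low values, 10 without the replicate block and 3 under quantile scaling. Among single genes 1 difference reversed: Hist2h2ac, ZnF4 against ZnF1 mutant, from -0.07 (not called) to 0.40 (adjusted p = 0.0334) under quantile scaling.

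ZnF1 mutant against wild type: 8 members lower became 0 without the filter, 26 under quantile scaling (median -0.55) and 1 with no replicate block. Leaving out each library gave 0 to 3 higher, 0 to 10 lower and medians of -0.40 to -0.02. ZnF4 mutant against wild type: without the filter 0 were higher and 0 lower, and lower became 0 with a mean of at least 4 RPKM, 2 under median-of-ratios scaling and 5 with the 4 libraries compared. Its median was -0.31 with a pseudocount of 0.1, -0.0903 without the filter, -0.0404 with a mean of at least 4 RPKM and -0.27 under quantile scaling. Leaving out each library gave 0 to 1 higher, 0 to 5 lower and medians of -0.32 to -0.10. ZnF4 against ZnF1 mutant: 5 higher became 0 without the filter, 13 under quantile scaling, 2 with no replicate block and 2 with 4 libraries. The 4 lower became 2 with a mean of at least 4 RPKM and 2 under quantile scaling, with medians of 0.26 and 0.33. Leaving out each library gave 2 to 8 higher, 2 to 6 lower and medians of -0.17 to 0.22. Cluster genes on long rows with a mean of at least 1 RPKM were 8 at 700 bases and 5 at 1000 bases. Between the days no member was called under any setting tried. The causes were not tested. For these settings the percent of all tested genes called is not given here, so the counts show only how the members' calls move. A library left out leaves 1 residual degree of freedom, and the lone library is assumed to vary like the others. The unknown depth limits the low values.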
